A study of Sus scrofa with 13 samples.

Results

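A set of 7 enzymes of glycolysis and glycogen metabolism was followed in biceps femoris muscle of pigs with and without an intact dystrophin gene: HK2, PFKFB1, TPI1, PGAM2, PGM1, PGM2L1 and PHKA1. They were chosen by gene symbol, with earlier results of these data known, and are 7 of the 10283 named genes on the array. Each was represented by the 1 probe set that carries its symbol. Because of that choice, their counts and medians set beside those of all probe sets are descriptions, and no test of the set was made. The study measured RNA of 13 German Landrace pigs on whole-transcript arrays, with 1 array per animal, in 4 groups. Exon 52 of DMD was deleted in the knockout (DMD KO) animals; the gene codes for dystrophin, which anchors the inner scaffold of muscle fibres to the matrix outside them. They were made by nuclear transfer from primary kidney cells whose DMD gene had been altered with a modified bacterial artificial chromosome. At 2 days of age there were 4 DMD KO and 3 wild-type (WT) animals, and at 3 months 3 of each genotype. Muscle of DMD KO animals was taken at necropsy directly after they died, and WT animals were euthanised at matching ages. Genotype, cloning and manner of death therefore cannot be told apart in any genotype difference given here. The sources name the samples biological replicates and give no litters, so p-values measure the spread between these animals.

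Glycolysis breaks glucose down to pyruvate and lactate and gives muscle a rapid supply of ATP, above all in fast fibres. Muscle also stores glucose as glycogen, which phosphorylase releases as a sugar phosphate when the fibre contracts. HK2 feeds glucose from the blood into glycolysis. PFKFB1 sets the level of the activator of phosphofructokinase, and TPI1 and PGAM2 carry out later steps. PGM1 joins glycogen to glycolysis, PGM2L1 makes a cofactor of the phosphoglucomutases, and PHKA1 is a regulatory subunit of the kinase that turns phosphorylase on.

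Values are log2 levels of probe sets, so a difference of 1 is a doubling. The base was inferred from their range. Array medians ran from 7.32 to 7.38, 25th percentiles from 6.53 to 6.61 and 95th percentiles, less close, from 9.21 to 9.83, and precision is limited by how many arrays there are. WT replicate 3 at 2 days stood apart, with a mean correlation of 0.918 to the other arrays against 0.943 to 0.964 for the other 12. The probe set of DMD did not separate the genotypes, with differences of 0.11 at 2 days (adjusted p = 0.705, limma) and -0.22 at 3 months (adjusted p = 0.528). The sources used here do not say where its probes lie relative to exon 52, so it checks no label. The 3 measured markers of skeletal muscle fibres, ACTA1, MYOT and RYR1, had mean levels between 11.12 and 11.84 on all arrays, highest in WT at 3 months as given with the other markers, and 3 markers of red blood cells lay between 5.80 and 6.54. In RNA from whole muscle, fewer fibres of a type and less RNA per fibre cannot be told apart. Levels of different probe sets were not compared with each other, except to give the place of HK2 and the other members among all probe sets.

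In WT muscle 6 of the 7 enzymes were higher at 3 months than at 2 days with no overlap between the animals, as were 7.02% of all probe sets. At 3 months the same 6 lay lower in DMD KO than in WT without overlap, as did 10.1% of all probe sets, and 4 of them passed the test while PHKA1 (adjusted p = 0.0541, limma) and PGM2L1 (0.0706) did not. HK2 ran the other way and was higher in DMD KO at 3 months. At 2 days the genotypes lay closer together, and TPI1 was the member whose difference passed the test. The levels of the 13 animals are plotted gene by gene.

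**Figure D1:**
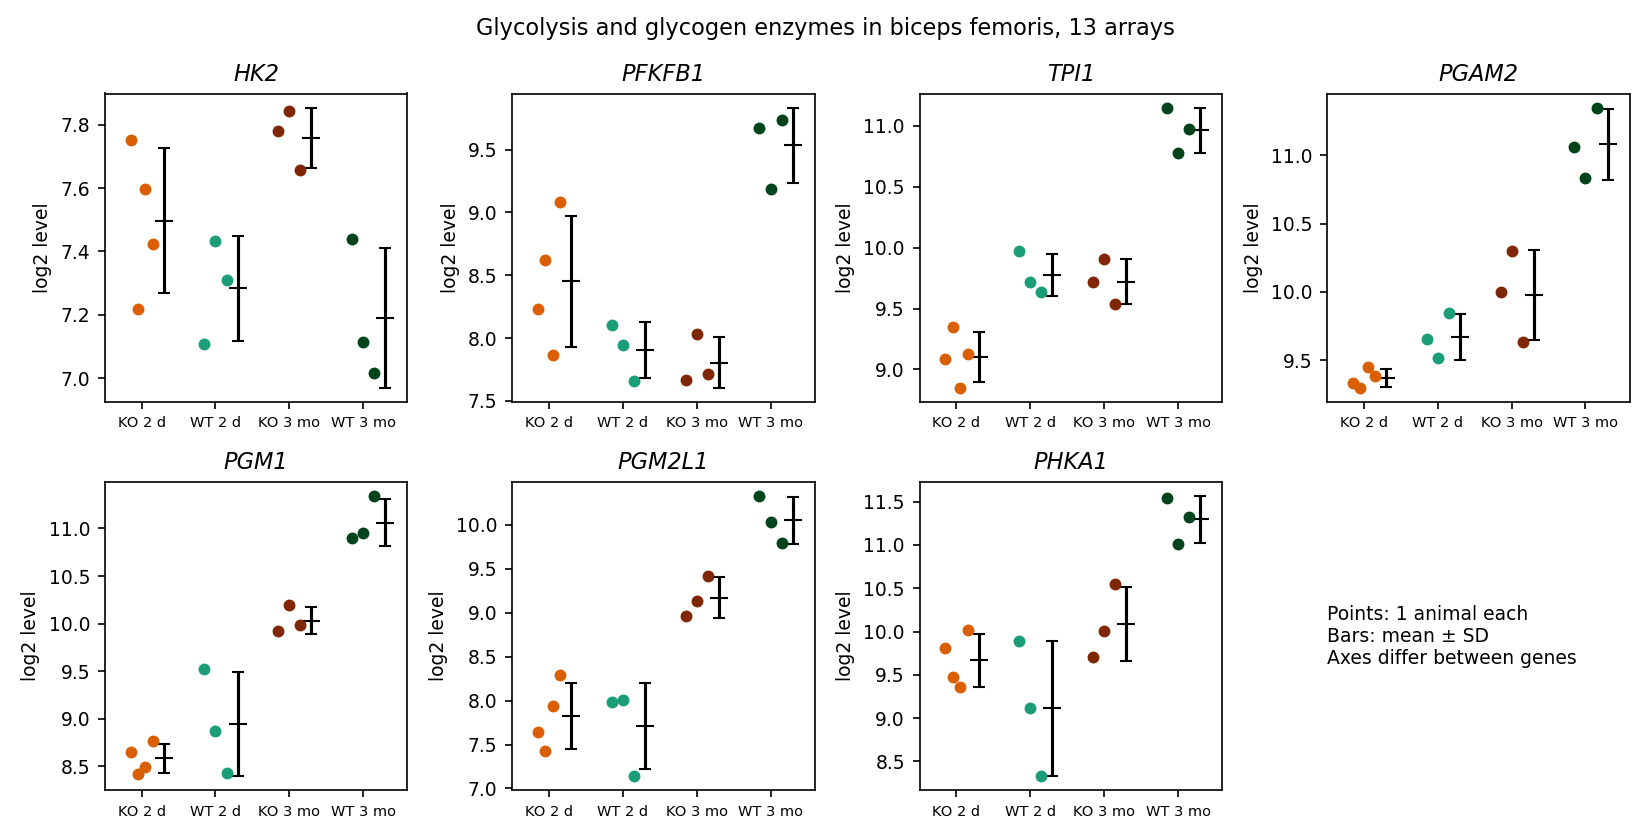
Log2 level of the 7 enzymes in each of the 13 animals (points) by genotype and age, with the mean ± SD of each group beside the points; the vertical axes differ between genes. The 3 WT animals at 3 months lie above all other animals in 6 panels, and in the HK2 panel the 3 DMD KO animals at 3 months lie above both WT groups.

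HK2, the hexokinase of insulin-responsive tissues such as muscle, traps glucose in the cell as a phosphate. Its level was 7.75, 7.22, 7.60 and 7.42 in the 4 DMD KO animals at 2 days and 7.11, 7.43 and 7.31 in the 3 WT animals of that age. At 3 months it was 7.78, 7.84 and 7.66 in DMD KO and 7.44, 7.12 and 7.02 in WT. The genotypes overlapped at 2 days and were separate at 3 months. The mean of HK2 over all arrays, 7.44, was at percentile 53.0 of the means of all probe sets. The means of the other members were between percentiles 84.3 (PFKFB1) and 96.8 (PHKA1). Group means fell in the order DMD KO at 3 months (7.76 ± 0.09, SD), DMD KO at 2 days (7.497 ± 0.23), WT at 2 days (7.28 ± 0.16) and WT at 3 months (7.19 ± 0.22), and each neighbouring pair of groups in this order overlapped.

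PFKFB1 codes for a bifunctional enzyme that both makes and removes the regulatory fructose bisphosphate, the activator of phosphofructokinase, and the gene serves liver and skeletal muscle. At 2 days its levels were 8.23, 8.62, 7.86 and 9.09 in DMD KO and 8.10, 7.95 and 7.66 in WT. At 3 months they were 7.67, 8.03 and 7.71 in DMD KO and 9.67, 9.19 and 9.74 in WT. WT at 3 months was the high group, above every animal of the other 3 groups, which overlapped with each other. The means were 9.53 ± 0.30 in WT at 3 months, 8.45 ± 0.52 in DMD KO at 2 days, 7.90 ± 0.22 in WT at 2 days and 7.81 ± 0.20 in DMD KO at 3 months. DMD KO at 2 days thus had the widest spread of this gene, with replicate 4 close to the WT level of 3 months. PFKFB1 is also a liver gene. The mean level of 3 markers of liver and kidney, ALB, APOA1 and UMOD, was 6.82 to 7.09 in DMD KO and 6.70 to 6.94 in WT at 2 days, and 6.56 to 6.83 in DMD KO and 6.56 to 6.82 in WT at 3 months. Their summed level was 8.41 to 8.68 and 8.32 to 8.60 at 2 days and 8.15 to 8.44 and 8.20 to 8.50 at 3 months, in the same order. ALB, the plasma protein of liver, was higher in DMD KO at 2 days by 0.64 ± 0.13 (adjusted p = 0.00861, limma). It fell with age in DMD KO by 0.51 ± 0.13 (adjusted p = 0.0248, limma), and PFKFB1 had the same signs there. At 3 months ALB had a mean of 6.42 in DMD KO and 6.06 in WT, where PFKFB1 was lower in DMD KO. At 2 days the means of APOA1 (7.01 in DMD KO and 7.04 in WT) and UMOD (6.88 and 7.02) were not higher in DMD KO. In DMD KO at 3 months APOA1 was lower than at 2 days, at 6.81, and UMOD was not, at 6.89. Over the 4 newborn DMD KO animals the list mean, 6.91, 6.95, 6.82 and 7.09, had the same order as PFKFB1. The mean of the fast fibre markers described below, 9.89, 10.02, 9.76 and 10.05 in these animals, had that order as well. In WT at 2 days the liver and kidney list, at 6.72, 6.70 and 6.94, did not have the order of PFKFB1. Neither did it in DMD KO or WT at 3 months. The part of liver or kidney RNA in the PFKFB1 values was not tested.

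TPI1, triosephosphate isomerase, interconverts the pair of triose phosphates that come from splitting the hexose. Its levels in DMD KO at 2 days were 9.08, 9.35, 8.85 and 9.13, all below the 9.97, 9.72 and 9.64 of WT at that age. At 3 months DMD KO animals had 9.72, 9.91 and 9.53 and WT animals 11.15, 10.78 and 10.97. The 3-month DMD KO animals (9.72 ± 0.19) overlapped with the newborn WT animals (9.78 ± 0.17) and lay above the newborn DMD KO animals (9.10 ± 0.20). WT at 3 months (10.96 ± 0.19) stood above all of them.

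PGAM2 is the muscle form of phosphoglycerate mutase, a late step of glycolysis. DMD KO animals at 2 days had 9.33, 9.30, 9.45 and 9.39, and WT animals 9.65, 9.51 and 9.85. At 3 months the values were 9.997, 10.30 and 9.64 in DMD KO and 11.06, 10.83 and 11.35 in WT. DMD KO was the lower genotype at both ages without overlap, and the DMD KO animals at 3 months (9.98 ± 0.33) overlapped with WT at 2 days (9.67 ± 0.17). The lowest group was DMD KO at 2 days (9.37 ± 0.07) and the highest WT at 3 months (11.08 ± 0.26).

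PGM1, phosphoglucomutase, converts the sugar phosphate released from glycogen into the one that enters glycolysis, and works in the opposite direction when glycogen is built. Its levels at 2 days were 8.65, 8.42, 8.50 and 8.76 in DMD KO and 9.52, 8.88 and 8.44 in WT. At 3 months they were 9.92, 10.20 and 9.98 in DMD KO and 10.90, 10.95 and 11.34 in WT. The newborn groups overlapped (8.58 ± 0.15 in DMD KO and 8.95 ± 0.55 in WT). Both 3-month groups lay above both newborn groups, with DMD KO (10.03 ± 0.14) below WT (11.06 ± 0.24).

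PGM2L1 makes the sugar bisphosphate that phosphoglucomutases need as a cofactor, and is best known from brain. At 2 days its levels were 7.64, 7.43, 7.94 and 8.29 in DMD KO and 7.98, 8.005 and 7.14 in WT, with overlap and similar means (7.82 ± 0.38 and 7.71 ± 0.49). At 3 months they were 8.97, 9.13 and 9.42 in DMD KO and 10.33, 10.04 and 9.79 in WT. As with PGM1, all 3-month animals lay above all newborn ones, and DMD KO at 3 months (9.17 ± 0.23) lay below WT (10.05 ± 0.27).

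PHKA1 codes for the alpha subunit of phosphorylase kinase in muscle, and its loss causes a glycogen storage disease of muscle. Newborn DMD KO animals had 9.81, 9.48, 9.36 and 10.02, and newborn WT animals 9.89, 9.12 and 8.33. At 3 months the levels were 9.70, 10.004 and 10.55 in DMD KO and 11.55, 11.01 and 11.33 in WT. WT at 3 months (11.30 ± 0.27) was above all other animals. DMD KO at 3 months (10.09 ± 0.43), DMD KO at 2 days (9.67 ± 0.30) and WT at 2 days (9.12 ± 0.78) followed in that order, each overlapping with the next. WT replicate 3 at 2 days, the array that stood apart, was the lowest of its group in PHKA1, PGM2L1, PGM1, PFKFB1 and TPI1 and the highest in PGAM2.

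The first comparison asked how newborn DMD KO muscle differed from WT. TPI1 was 1.60-fold lower in DMD KO, with a log2 difference of -0.67 ± 0.14 (SE; 95% interval -0.97 to -0.37; adjusted p = 0.0104, limma). It was the 1 member of 7 that passed the test, which called 2.85% of all probe sets lower and 7.09% higher. PGAM2 was lower in DMD KO without overlap, as were 10.5% of all probe sets, and its difference of -0.30 ± 0.15 did not pass (95% interval -0.64 to 0.03; adjusted p = 0.222, limma). The other 5 members overlapped between the genotypes. PFKFB1 and PHKA1 had positive differences of 0.55 ± 0.24 and 0.55 ± 0.31, with adjusted p-values of 0.167 and 0.267 from limma and intervals of 0.02 to 1.08 and -0.13 to 1.23. The remaining differences were 0.21 ± 0.14 for HK2 (adjusted p = 0.332, limma), -0.36 ± 0.21 for PGM1 (adjusted p = 0.273) and 0.12 ± 0.24 for PGM2L1 (adjusted p = 0.783). Over the 7 members the median difference was 0.12, against -0.02 over all probe sets. TPI1 passed whichever array was left out, with -0.74 (adjusted p = 0.0170, limma) without WT replicate 3. The values that did not pass moved more with single arrays. PGM1 was at -0.62 (adjusted p = 0.0765, limma) without WT replicate 3 and at -0.071 without WT replicate 1, and PHKA1 at 0.16 and 0.94 without the same arrays in turn. PGM2L1 was at -0.17 without WT replicate 3. PFKFB1 was at 0.34 without DMD KO replicate 4 and HK2 at 0.13 without WT replicate 1. Quantile normalization moved PGAM2 to -0.54 (adjusted p = 0.111, limma).

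The question at 3 months was the same. PFKFB1 was 3.31-fold lower in DMD KO than in WT (log2 difference -1.73 ± 0.26, 95% interval -2.29 to -1.16; adjusted p = 0.00177, limma). TPI1 was 2.37-fold lower (-1.24 ± 0.15; adjusted p = 0.000344, limma), PGAM2 2.15-fold lower (-1.10 ± 0.17; adjusted p = 0.0017) and PGM1 2.04-fold lower (-1.03 ± 0.22; adjusted p = 0.0156). The fall thus covered the regulator of phosphofructokinase, a pair of later glycolytic steps and the link to glycogen. HK2 was 1.48-fold higher in DMD KO (0.57 ± 0.15; adjusted p = 0.0427, limma). Together 5 of 7 members passed, 4 lower and 1 higher, where limma called 1.36% of all probe sets lower and 4.62% higher. PHKA1 and PGM2L1 had differences of -1.21 ± 0.34 (95% interval -1.94 to -0.48; adjusted p = 0.0541, limma) and -0.88 ± 0.26 (-1.44 to -0.32; adjusted p = 0.0706) and did not pass. In all 7 members the 3 DMD KO and 3 WT animals did not overlap, 6 lower and 1 higher. Among all probe sets 10.1% were lower and 12.9% higher without overlap. The median difference of the members was -1.10, against -0.05 over all probe sets.

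The call of HK2 at 3 months rested on several arrays. It was lost without DMD KO replicate 3 (adjusted p = 0.0596, limma) or 4 (0.0612) at 2 days, without DMD KO replicate 1 (0.107), 2 (0.131) or 3 (0.0847) at 3 months and without WT replicate 2 (0.143) or 3 (0.176) at 3 months. PGM1 was lost without DMD KO replicate 1 (adjusted p = 0.0542, limma) or 3 (0.0626) or WT replicate 3 (0.0765) at 3 months, so 3 members passed in each of those 3 fits. Over all probe sets these 3 fits called 1075, 702 and 725 in the same order, in place of 1310. PHKA1 passed without WT replicate 1 at 2 days (adjusted p = 0.0207, limma). Without WT replicate 3 at 2 days both PHKA1 (adjusted p = 0.0121, limma) and PGM2L1 (0.0200) passed, which made all 7 members called. That array is in neither group of this comparison, and without it 2036 of all probe sets were called. PFKFB1, TPI1 and PGAM2 passed whichever array was left out.

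**Figure D2:**
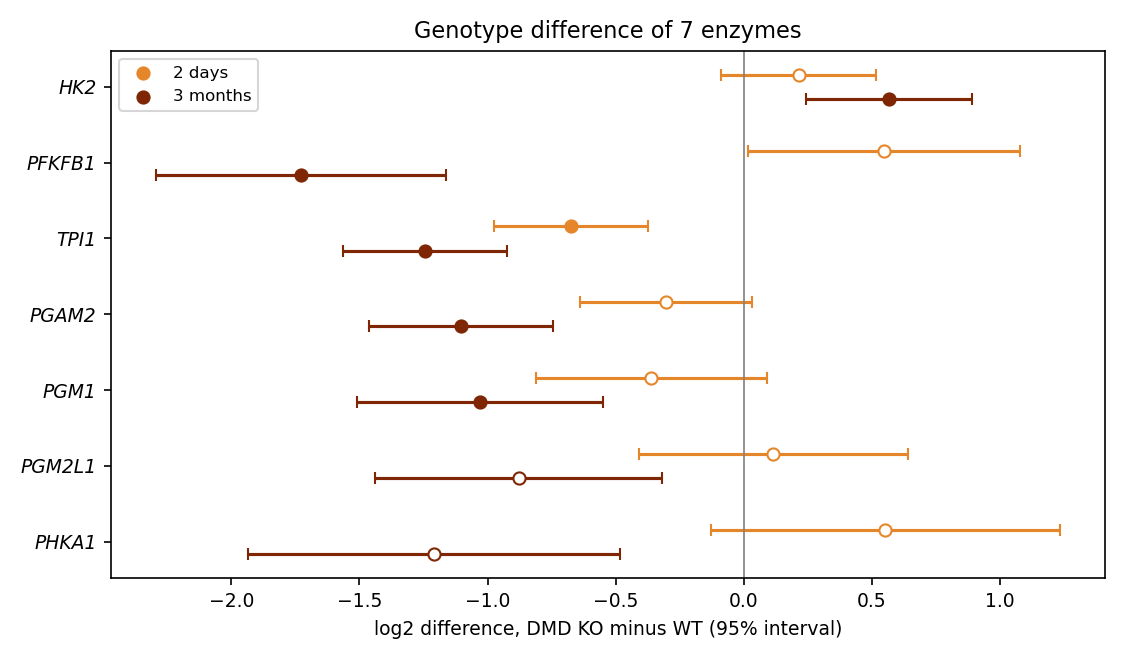
Log2 difference of DMD KO minus WT for the 7 enzymes at 2 days and at 3 months, as points with 95% intervals; filled points have an adjusted p under 0.05 (limma) and open points do not. At 3 months 6 intervals lie below 0 and that of HK2 above it, and at 2 days the 1 filled point is TPI1.

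In WT muscle the comparison of 3 months with 2 days shows the change of healthy muscle with age. PGM2L1 rose 5.08-fold (log2 difference 2.34 ± 0.26; adjusted p = 0.000478, limma), PHKA1 4.53-fold (2.18 ± 0.34; adjusted p = 0.00433) and PGM1 4.34-fold (2.12 ± 0.22; adjusted p = 0.000322). PGM1 and PHKA1 serve the use of glycogen, and PGM2L1 makes the cofactor of PGM1. PFKFB1 rose 3.09-fold (1.63 ± 0.26; adjusted p = 0.00539, limma), PGAM2 2.66-fold (1.41 ± 0.17; adjusted p = 0.000831) and TPI1 2.28-fold (1.19 ± 0.15; adjusted p = 0.00135). HK2 had a difference of -0.09 ± 0.15 (95% interval -0.42 to 0.23; adjusted p = 0.904, limma). The 6 members that passed all rose, where limma called 1.71% of all probe sets higher and 1.18% lower. All 6 were higher at 3 months without overlap, as were 7.02% of all probe sets. The median over the 7 members was 1.63, against -0.01 over all probe sets. No single array changed any of these calls. In a fit on the 6 WT arrays alone PGM1 and PHKA1 did not pass (adjusted p = 0.0632 and 0.111, limma). This comparison and the genotype difference at 3 months share the 3 WT arrays of 3 months, so their values are not independent of each other.

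The same age comparison within DMD KO gave 4 members that rose. PGM1 rose 2.73-fold (1.45 ± 0.21; adjusted p = 0.000851, limma) and PGM2L1 2.55-fold (1.35 ± 0.24; adjusted p = 0.00363). TPI1 (0.62 ± 0.14; adjusted p = 0.0143, limma) and PGAM2 (0.61 ± 0.15; adjusted p = 0.0286) rose by less on the log2 scale. All 4 were separate between the ages, as were 10.1% of all probe sets in the upward direction, and limma called 4.47% higher and 3.57% lower. PFKFB1 had a negative difference of -0.65 ± 0.24 (95% interval -1.17 to -0.12; adjusted p = 0.154, limma), PHKA1 one of 0.42 ± 0.31 (-0.26 to 1.10; adjusted p = 0.623) and HK2 one of 0.26 ± 0.14 (-0.04 to 0.56; adjusted p = 0.381), and the animals of both ages overlapped in each of these 3 genes. The median over the members was 0.61, against -0.02 over all probe sets.

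Of these calls, PGAM2 was lost without any 1 of the 4 newborn DMD KO arrays (adjusted p = 0.0709, 0.0744, 0.0510 and 0.0624 without replicates 1 to 4, limma) and without DMD KO replicate 1 (0.0904) or 2 (0.147) at 3 months. TPI1 was lost without DMD KO replicate 2 at 3 months (adjusted p = 0.0811, limma), which left 2 members called. PFKFB1 passed, at -0.84, without DMD KO replicate 3 at 2 days (adjusted p = 0.0435, limma). PGM1 and PGM2L1 passed whichever array was left out.

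**Figure D3:**
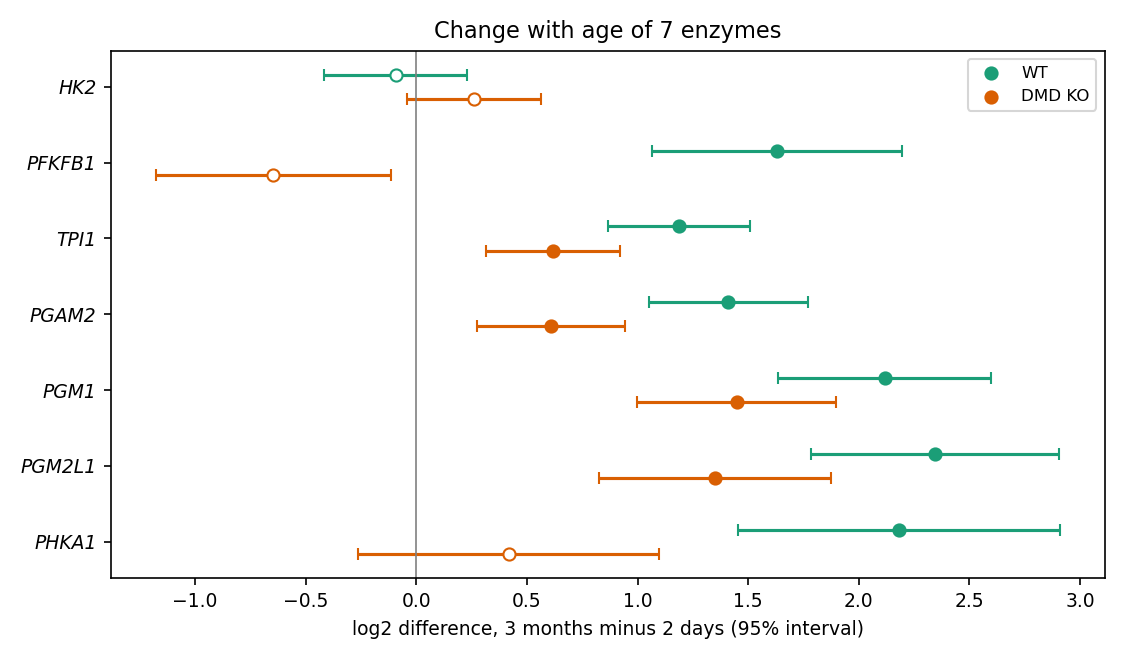
Log2 difference of 3 months minus 2 days for the 7 enzymes in WT and in DMD KO, as points with 95% intervals; filled points have an adjusted p under 0.05 (limma). In WT 6 intervals lie above 0, in DMD KO 4 filled points do, and PFKFB1 lies on opposite sides of 0 in the genotypes.

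Whether the genotype difference changed between the ages was tested as an interaction, the difference at 3 months minus that at 2 days. PFKFB1 had the largest of the 7, -2.27 ± 0.36 (95% interval -3.05 to -1.50; adjusted p = 0.00302, limma): DMD KO was 0.55 above WT at 2 days and 1.73 below it at 3 months on the log2 scale. PHKA1 followed at -1.76 ± 0.46 (95% interval -2.76 to -0.77; adjusted p = 0.0457, limma), also with a positive difference at 2 days and a negative one at 3 months. Limma called 1.99% of all probe sets negative and 3.06% positive in this contrast. The values of the other 5 members did not pass: -0.995 ± 0.35 for PGM2L1 (adjusted p = 0.153, limma), -0.80 ± 0.23 for PGAM2 (0.0648), -0.67 ± 0.30 for PGM1 (0.300), -0.57 ± 0.20 for TPI1 (0.153) and 0.35 ± 0.20 for HK2 (0.469). The median was -0.80, against -0.01 over all probe sets. PFKFB1 passed whichever array was left out. PHKA1 was lost without any 1 of the arrays other than WT replicate 1 at 2 days and DMD KO replicate 3 at 3 months, with adjusted p-values from 0.0549 without WT replicate 3 at 2 days, where its value was -1.37, to 0.112 without DMD KO replicate 1 at 3 months (limma). PGAM2 passed without WT replicate 3 at 2 days (adjusted p = 0.0474, limma), DMD KO replicate 2 at 3 months (0.0281) or WT replicate 2 at 3 months (0.0477), and PGM1 without WT replicate 1 at 2 days (0.0347).

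Set beside newborn WT muscle, the DMD KO animals at 3 months overlapped with it in PFKFB1, TPI1, PGAM2 and PHKA1. In PGM1, PGM2L1 and HK2 they lay above it without overlap, as did 12.6% of all probe sets. This pair of groups differs in both age and genotype, and no test was made of it.

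Markers of fibre types and other cells also differed between the groups, and not all of them in the pattern of these genes. The 8 measured markers of fast fibres had mean levels of 9.76 to 10.05 in DMD KO and 10.18 to 10.65 in WT at 2 days, and of 10.42 to 10.81 in DMD KO and 11.63 to 11.91 in WT at 3 months. The summed level of this list was 13.77 to 14.16, 14.26 to 14.62, 14.31 to 14.56 and 14.93 to 15.10 on the log2 scale in the same order. At 2 days 4 of the 8 fell in DMD KO (MYH1, MYBPC2, ACTN3 and CASQ1), and at 3 months 4 fell (ACTN3, ATP2A1, TNNC2 and PVALB). PVALB, the calcium buffer of fast fibres, was at 5.49 to 6.67 in DMD KO and 10.42 to 11.37 in WT at 3 months. The list mean was thus lower in DMD KO at both ages and, like 6 of the 7 enzymes, highest in WT at 3 months. Not every marker followed it. MYH1 was at 12.257 in DMD KO and 12.255 in WT at 3 months and was highest in WT at 2 days (12.38). ATP2A1 was at 10.95 in DMD KO and 10.88 in WT at 2 days. The part of fast fibres in the enzyme values was not tested.

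The slow fibre list, 7 of 10 measured, had mean levels of 11.43 to 11.72 in DMD KO and 10.25 to 10.57 in WT at 2 days, where 4 rose in DMD KO, and overlapped at 3 months (11.01 to 11.32 and 9.85 to 11.10). Its summed level ran from 14.67 to 14.88 and 13.77 to 14.12 at 2 days and from 14.40 to 14.63 and 13.59 to 14.75 at 3 months. Fibroblast markers, 5 of 6 measured, were lower in DMD KO at 2 days (9.84 to 10.12 against 11.14 to 11.25), where all 5 fell, and higher at 3 months (11.18 to 11.26 against 10.26 to 10.71), where 4 rose. Their summed level was 12.54 to 12.91 against 14.21 to 14.29 at 2 days and 14.11 to 14.28 against 13.31 to 13.91 at 3 months. TPI1, PGAM2 and PGM1 had negative genotype differences at both ages, beside fibroblast markers that were lower at 2 days and higher at 3 months. PFKFB1 (0.55 and -1.73), PHKA1 (0.55 and -1.21) and PGM2L1 (0.12 and -0.88) had signs opposite to this list at 2 days and at 3 months. Their differences at 2 days did not pass. Macrophage markers, 3 of 6 measured, had mean levels of 7.84 to 8.35 in DMD KO and 6.67 to 6.91 in WT at 3 months, with MSR1 and AIF1 called higher, and of 6.93 to 7.01 and 6.60 to 6.89 at 2 days. Their summed level was 9.62 to 10.57 and 8.49 to 8.59 at 3 months and 8.60 to 8.70 and 8.37 to 8.75 at 2 days. The group with the highest mean of HK2 was also the highest in the macrophage list. CSF1R, the remaining measured marker of that list, did not follow. Its mean was 7.68 in DMD KO and 7.72 in WT at 3 months, and it was highest in WT at 2 days (7.78).

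Of the 7 markers of satellite cells and regenerating fibres MYOG and NCAM1 were measured, with list means of 9.03 to 9.34 in DMD KO and 8.26 to 8.41 in WT at 3 months and of 8.63 to 8.76 and 8.41 to 8.58 at 2 days. Their summed level was 10.11 to 10.41 and 9.26 to 9.41 at 3 months and 9.66 to 9.79 and 9.44 to 9.64 at 2 days. NCAM1, a surface protein of satellite cells and regenerating fibres, was higher in DMD KO at 3 months by 1.37 ± 0.12 (adjusted p = 3e-05, limma), and both genes rose with age in DMD KO. The group means of this list, 9.21, 8.71, 8.48 and 8.35, had the same order of groups as HK2. NCAM1 had this order by itself and MYOG did not. The means of MYOG were 8.72 in DMD KO at 3 months, 8.377 in DMD KO at 2 days, 8.13 in WT at 2 days and 8.382 in WT at 3 months. Markers of skeletal muscle fibres had list means of 11.68 to 11.84 in WT at 3 months, above the 11.29 to 11.52 of DMD KO at that age and above all newborn animals (11.28 to 11.51 in DMD KO and 11.12 to 11.47 in WT). Their summed level was 13.65 to 13.68 in WT at 3 months against 13.25 to 13.51 in DMD KO, and 13.41 to 13.49 and 13.26 to 13.48 in newborn DMD KO and WT. ACTA1, the actin of skeletal muscle, rose with age in WT (0.54 ± 0.13; adjusted p = 0.0452, limma), and the differences of ACTA1 (-0.45 ± 0.13; adjusted p = 0.0621), RYR1 (-0.34 ± 0.20; 0.379) and MYOT (-0.16 ± 0.10; 0.435) between the genotypes at 3 months did not pass. This list thus had its highest group where 6 of the 7 enzymes had theirs. The part of these cell types in the results was not tested.

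**Figure D4:**
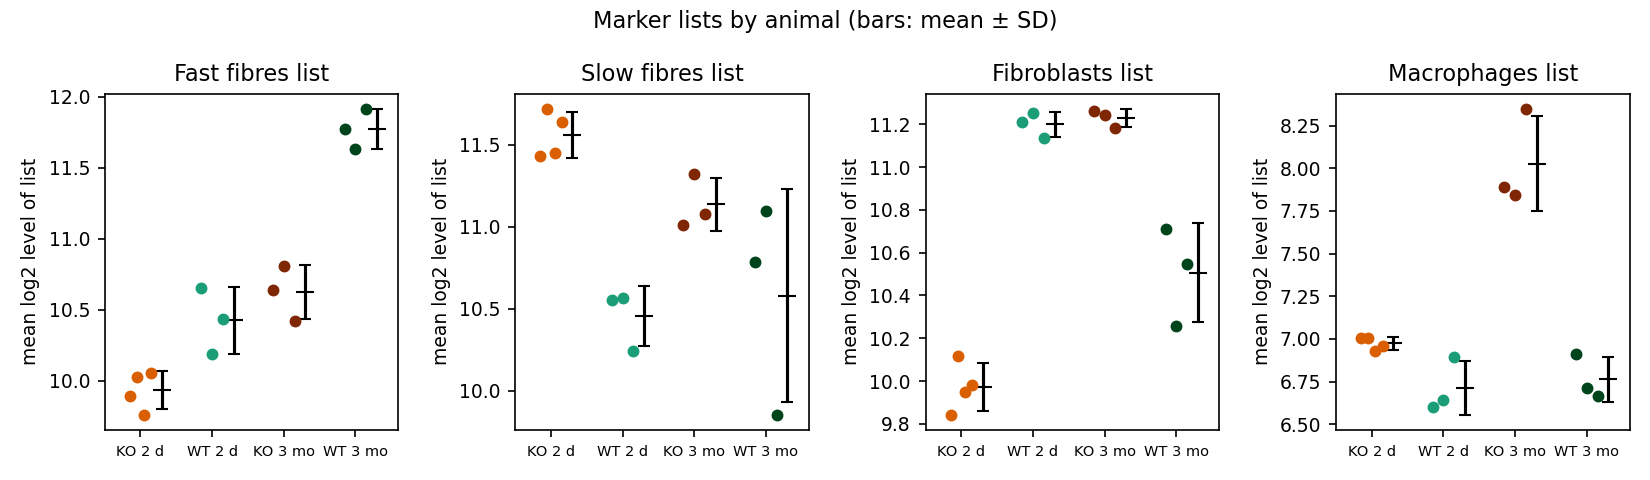
Mean log2 level of the measured markers of fast fibres, slow fibres, fibroblasts and macrophages in each of the 13 animals (points), with the mean ± SD of each group; the vertical axes differ. The fast fibre list is highest in WT at 3 months (11.63 to 11.91) and the macrophage list in DMD KO at 3 months (7.84 to 8.35).

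Of 59 other genes listed for the pathway 35 were measured, that is, had a probe set with their symbol alone. At 2 days 5 of these 35 rose and 7 fell in DMD KO, where limma called 7.09% and 2.85% of all probe sets. Their median difference was -0.18. In the steps from triose phosphate to lactate, to which TPI1 and PGAM2 belong, 4 of 8 fell and the other 4 did not pass. GPD1, which diverts triose phosphate to glycerol phosphate, fell by 1.08 ± 0.15 (adjusted p = 0.00144, limma) and LDHA, which makes lactate, by 0.82 ± 0.13 (0.00209). Of 12 genes listed under glycogen synthesis, some only by their gene family, 4 rose and 1 fell. UGP2, which makes UDP-glucose, was 2.42-fold higher (1.28 ± 0.22, adjusted p = 0.00395, limma). GYG1, the glycogen primer, was higher by 0.73 ± 0.12 (adjusted p = 0.00321, limma) and the muscle glycogen synthase GYS1 by 0.54 ± 0.16 (0.0476). The glycogen-binding STBD1 fell by 0.91 ± 0.13 (adjusted p = 0.00171, limma). SLC2A4, the insulin-dependent glucose transporter, rose by 0.50 ± 0.09 (adjusted p = 0.00651, limma) and FBP2, the muscle fructose bisphosphatase, fell by 0.87 ± 0.25 (0.0486). GAPDH (-0.10 ± 0.14; adjusted p = 0.671, limma) and the muscle phosphorylase PYGM (-0.36 ± 0.19; 0.235) did not pass. Of the 12 calls 8 held without any 1 array. FBP2 held only without WT replicate 2 at 2 days, with an adjusted p of up to 0.147 (limma), and GYS1 was lost without 9 of the 13 arrays, with an adjusted p of 0.142 without WT replicate 3 at 2 days.

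At 3 months 4 of the 35 rose and 6 fell in DMD KO, with a median of -0.22, where limma called 4.62% and 1.36% of all probe sets. The same 8 genes around TPI1 and PGAM2 had 3 that fell and 5 that did not pass. PGK1, the step before PGAM2, fell by 0.97 ± 0.15 (adjusted p = 0.0021, limma), while GAPDH (-0.33 ± 0.15; 0.277) and LDHA (-0.26 ± 0.13; 0.317) did not pass. In the list for glycogen synthesis 2 rose and 3 fell. The regulatory subunits PPP1R3A (-1.21 ± 0.32; adjusted p = 0.0440, limma) and PPP1R3B (-1.17 ± 0.25; 0.0137), which bring protein phosphatase to glycogen, and STBD1 (-1.07 ± 0.14; 0.000688) fell. PGM2 (0.89 ± 0.15; adjusted p = 0.00292, limma) and PGM5 (0.59 ± 0.14; 0.0271), of the same family as PGM1, rose, as did PYGL, the liver form of phosphorylase (0.99 ± 0.21; 0.0156), and HK1 (0.63 ± 0.13; 0.0106), a hexokinase like HK2. PGM1 thus fell where PGM2 and PGM5 rose. PGM2 and PGM5 are in the glycogen synthesis list by their family, and whether they carry out the step of PGM1 was not examined. PYGM (-0.44 ± 0.20; adjusted p = 0.262, limma) and GYS1 (-0.34 ± 0.17; 0.300) did not pass. Without any 1 array 5 of the 10 calls held. HK1 and PPP1R3B were lost without replicate 3 of either genotype at 3 months (adjusted p of up to 0.0545 and 0.0696, limma), PYGL without DMD KO replicate 3 or WT replicate 2 at 3 months (up to 0.0810), PGM5 without replicates 2 or 3 of either genotype at 3 months (up to 0.115) and PPP1R3A without 9 of the 13 arrays (up to 0.142). The count was 5 without DMD KO replicate 3 and 6 without WT replicate 3.

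**Figure D5:**
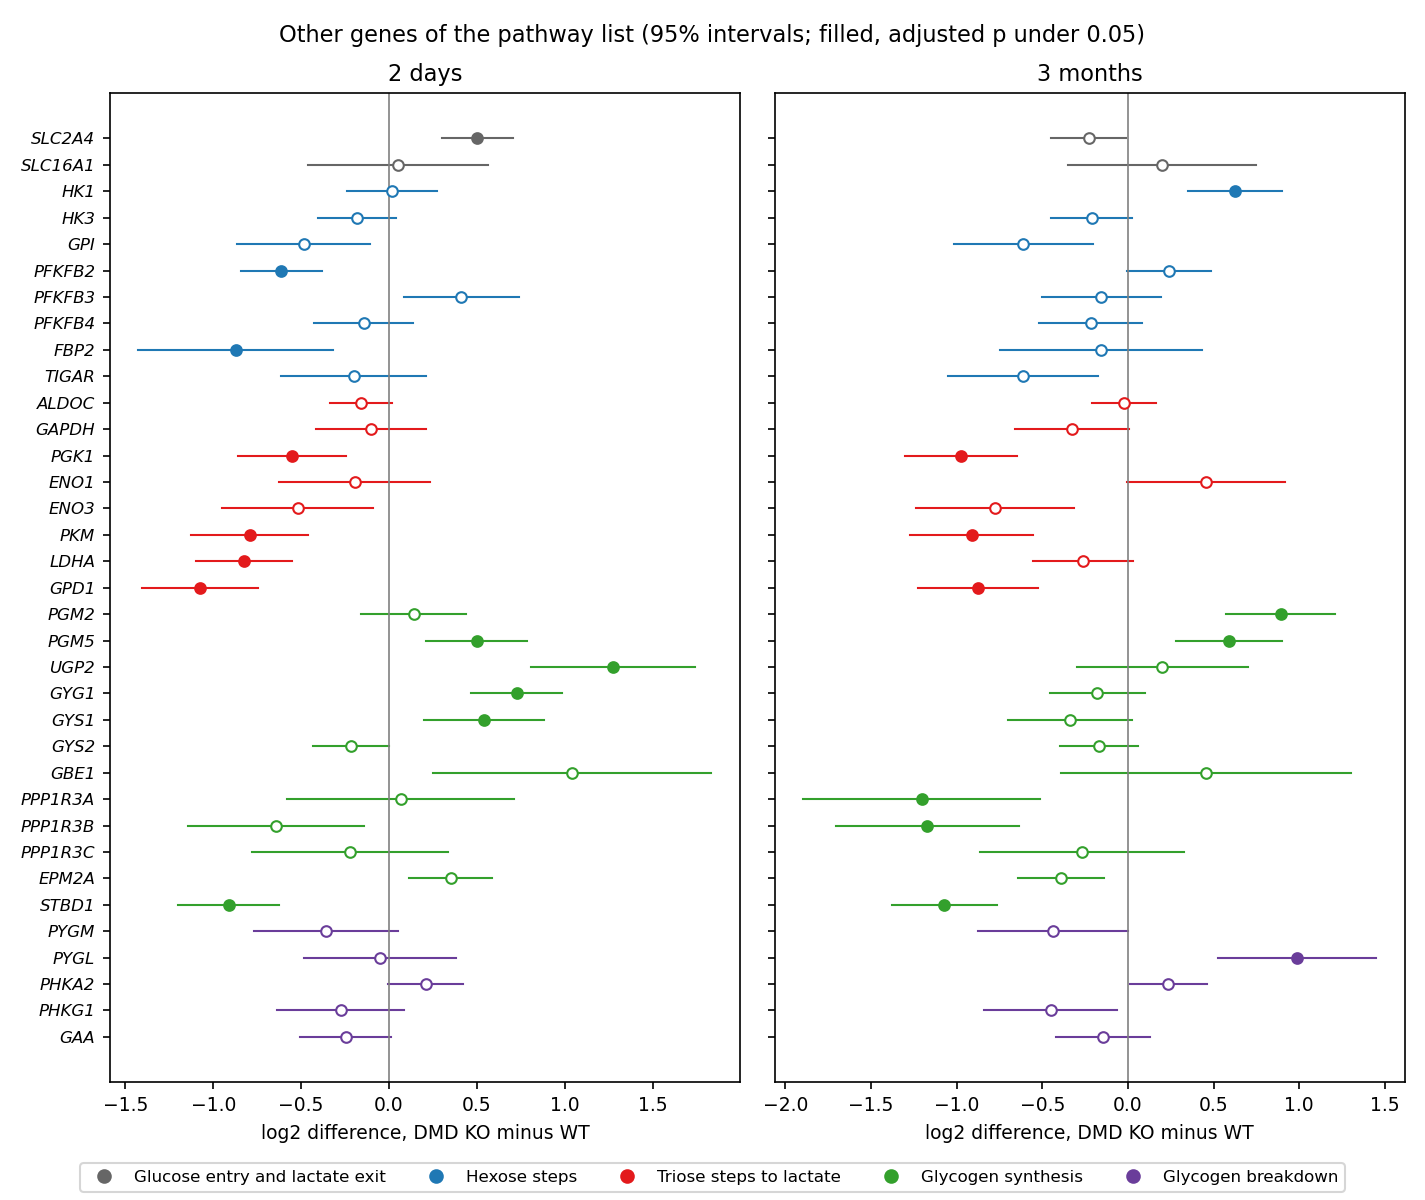
Log2 difference of DMD KO minus WT for the 35 other measured genes of glycolysis and glycogen metabolism at 2 days and at 3 months, with 95% intervals, coloured by step; filled points have an adjusted p under 0.05 (limma). At 2 days 5 filled points lie above 0 and 7 below it, and at 3 months 4 lie above and 6 below.

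With age, 10 of the 35 rose and 1 fell in WT (median 0.13), where limma called 1.71% and 1.18% of all probe sets. STBD1 rose by 1.45 ± 0.14 (adjusted p = 0.000188, limma), GYG1 by 1.33 ± 0.13 (0.000156), GPD1 by 1.25 ± 0.16 (0.00184), PYGM by 1.16 ± 0.20 (0.00864) and GAPDH by 0.87 ± 0.15 (0.0100). PPP1R3A rose by 1.54 ± 0.32 (adjusted p = 0.0233, limma) and PGM2 fell by 0.67 ± 0.15 (0.0287). PPP1R3A was lost without WT replicate 1 or 3 at 3 months (adjusted p of up to 0.0811, limma) and PGM2 without WT replicates 1 or 2 at 2 days or 2 or 3 at 3 months (up to 0.112). LDHA (0.51 ± 0.13; adjusted p = 0.0699, limma) and GYS1 (0.26 ± 0.17; 0.625) did not pass. In a fit on the 6 WT arrays alone 3 of these 11 calls held.

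In DMD KO 14 of the 35 rose with age and 5 fell (median 0.08), where limma called 4.47% and 3.57% of all probe sets. FBP2 (1.46 ± 0.25; adjusted p = 0.0030, limma), GPD1 (1.45 ± 0.15; 8.81e-05), STBD1 (1.29 ± 0.13; 7.95e-05), PYGL (1.11 ± 0.20; 0.00367), PYGM (1.08 ± 0.19; 0.00305), LDHA (1.07 ± 0.13; 0.00019) and GAPDH (0.64 ± 0.14; 0.0149) rose. UGP2 (-1.16 ± 0.22; adjusted p = 0.0046, limma), GYS1 (-0.61 ± 0.16; 0.0290), the glycogen phosphatase EPM2A (-0.61 ± 0.11; 0.00355) and SLC2A4 (-0.59 ± 0.09; 0.00169) fell. GAPDH was lost without DMD KO replicate 1 or 2 at 3 months (adjusted p of up to 0.0715, limma) and GYS1 without DMD KO replicates 1 or 2 at 2 days or 1 or 3 at 3 months (up to 0.126). Without DMD KO replicate 1 at 3 months 11 of the 35 were called. In the interaction 1 of the 35 was positive and 4 were negative, where limma called 3.06% and 1.99% of all probe sets. PFKFB2, the heart form in the family of PFKFB1, was positive at 0.86 ± 0.16 (adjusted p = 0.00718, limma), opposite in sign to PFKFB1. GYG1, GYS1, EPM2A and SLC2A4 were negative.

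The genes whose levels were most like those of each member over the 13 arrays were named as a description, by Pearson's r; the arrays share 4 group means, so r of the deviations from those means is given beside it. For PFKFB1 they were ATP2A1, the calcium pump of fast fibres (r = 0.938, deviations 0.89), HRC (0.93, deviations 0.72) and UBE2D4 (0.928, deviations 0.73). PGAM2 was most like PVALB (0.961, deviations 0.91), ACTN3 (0.959, deviations 0.72) and SLC37A4 (0.957, deviations 0.64). The fast fibre markers ATP2A1, PVALB and ACTN3 were thus among the nearest genes of these enzymes. TPI1 was most like PEBP1 (0.981, deviations 0.69), P2RY1 (0.98, deviations 0.85) and AK1 (0.972, deviations 0.85). PGM1 was most like GPI (0.98, deviations 0.88), ACTN3 (0.961, deviations 0.40) and GAPDH (0.958, deviations 0.71), GPI and GAPDH being enzymes of glycolysis. PGM2L1 was most like RNF130 (0.972), C7H6orf106 (0.962) and PSTPIP2 (0.95), with deviations of 0.76, 0.75 and 0.43. PHKA1 was most like UBE2G1 (0.969), WWP1 (0.965) and PIGC (0.945), with deviations of 0.88, 0.88 and 0.87. HK2 was most like ADGB (0.895), GJA1 (0.844) and CTSL (0.84), with deviations of 0.72, 0.64 and 0.55.

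Among the members, r over the 13 arrays ran from 0.575 to 0.942 between the 6 enzymes other than HK2, and each of them had a negative r with HK2, from -0.547 for PFKFB1 to -0.0545 for PGM2L1. The deviations from group means were less alike, from -0.39 for PGAM2 with PGM2L1 to 0.76 for PGM1 with PHKA1. The deviations of PGM2L1 and PHKA1 had r of -0.76 and -0.73 with the main axis along which arrays of 1 group differed (the first principal component of deviations from group means), on which WT replicate 3 at 2 days had a score of 61.1 and which holds 44.9% of that spread. Those of the other 5 members had r between -0.35 and 0.45 with it.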

How the data were processed

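RNA of biceps femoris from 13 pigs was read on Affymetrix whole-transcript arrays. The deposited table holds 21893 probe sets in values read as log2, since they run from 2.81 to 13.8, and the submitters' processing notes name Affymetrix Power Tools. The sources used here do not state its version, background correction, summary method or normalization. That values were normalised before deposit is inferred from the close medians.

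Gene symbols came from the platform annotation, and 10752 probe sets were matched through their gene numbers to current names (5 symbols updated). Of the probe sets 11028 had 1 symbol, 418 several and 10447 none, and only those with 1 symbol were named. The probe set with the highest mean stood for a gene. A gene of the lists is called measured where a probe set carried its symbol alone. PFKM and the other genes of the lists without such a probe set were not analysed here. Whether probe sets with no symbol or several cover them was not examined. Near-identical family members may share probes, which was not checked, as probe sequences were not used here.

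The R package limma 3.58.1 (R 4.3.3; functions lmFit and eBayes) was fitted to all probe sets over the 4 groups, with 9 residual degrees of freedom, no filter and no further normalization. Contrasts were the genotype difference at each age, the age difference in each genotype and the interaction. Tests were two-sided, adjusted by Benjamini-Hochberg over all 21893 probe sets and called at an adjusted p under 0.05. The fit was tested on simulated data.

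The members, the list of 59 other pathway genes and the marker lists were chosen with earlier results of these data known. Named in the text were the 7 members, of the other pathway genes up to 4 called genes with the largest rise and 4 with the largest fall per comparison plus GAPDH, PYGM, GYS1 and LDHA by value, and the 3 genes most like each member. Alternatives were the groups of a comparison alone, quantile normalization, a variance prior with trend and robust estimation, centring on the array median, a filter at the 25th percentile of probe set means, the second probe set of a gene, array weights, the replicate number as a block, leaving out each array, and, chosen after seeing the data, a covariate for the main axis along which arrays of 1 group differed. The estimation of array weights stopped before it converged.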

Additional observations from a re-analysis of the deposited data

Results flagged for a closer look

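Among the 7 members and the 35 other pathway genes, 7 genes passed the interaction test of limma (adjusted p under 0.05). In these the genotype difference itself differed between 2 days and 3 months. Over all probe sets limma called 1.99% negative and 3.06% positive in this test. Among the members these were PFKFB1, with an interaction of -2.27, and PHKA1, with -1.76. In PFKFB1 the mean of the 3-month DMD KO animals was the lowest of the 4 groups, with overlap with both newborn groups, and that of the 3-month WT animals the highest. Of the other pathway genes, GYG1 had -0.91, GYS1 -0.88, EPM2A -0.74 and SLC2A4 -0.73, each with a positive genotype difference at 2 days and a negative one at 3 months. PFKFB2 had 0.86, with the signs the other way round. The calls of PHKA1 and GYS1 were lost without 11 and 9 of the 13 arrays, respectively. No member had an animal that stood apart by Dixon's criterion in DMD KO at 2 days, the group of 4 in which it could be applied.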

How the results depend on the processing

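Over the 7 members, 35 results were recomputed under the alternatives, which gave 728 values. Of these 664 kept direction and side of the threshold, 36 lost the call, 22 gained it and 6 changed sign. The sign changes were those of PGM2L1 at 2 days (0.12 as reported), which was -0.040 with the replicate block, -0.10 with array weights, -0.25 with the axis covariate and -0.17 to 0.26 without 1 array, and of PHKA1 at 2 days, which was -0.072 with array weights. Among other genes GAPDH at 2 days was -0.24 to 0.069 without 1 array, GAPDH in the interaction 0.088 with array weights, and PYGM in the interaction 0.038 with the replicate block, 0.17 after quantile normalization, 0.22 with array weights and -0.25 to 0.044 without 1 array.

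Same-numbered animals of different groups did not deviate together (correlations from -0.50 to 0.33), so the numbers were not taken as pairs. With the replicate number as a block, a fit in which the only array numbered 4 (DMD KO at 2 days) drops out, 7 other pathway genes in place of 12 passed at 2 days and 1 member in place of 2 in the interaction, and PGAM2 in DMD KO with age and HK2 at 3 months were lost. With array weights 3 members and 22 other pathway genes passed at 2 days and 12 other pathway genes in the interaction. Over all probe sets 2175 passed at 2 days and 1105 in the interaction as reported. These counts were 5438 and 2760 with array weights, and 735 and 580 with the block. With the axis covariate 4 members and 11 other pathway genes passed in the interaction, in place of 2 and 5. Over all probe sets 2566 passed there, in place of 1105. On the WT arrays alone 3 of the 35 passed in the age comparison, in place of 11, and 40 of all probe sets in place of 633. After quantile normalization 3 other pathway genes rose and 10 fell at 2 days, against 5 and 7 as reported, and 2 were positive and 4 negative in the interaction, against 1 and 4.

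Leaving out 1 array gave 1 member at 2 days, 3 to 7 at 3 months, 6 in WT with age, 2 to 4 in DMD KO with age and 1 to 3 in the interaction. For the other pathway genes it gave 8 to 11, 5 to 12, 8 to 12, 11 to 20 and 4 to 7 in the same order. Over all probe sets 1310 were called at 3 months, with 3412 under array weights, 829 with the block and 702 to 2036 without 1 array. HK2 at 3 months passed in 11 of 21 alternatives. With 3 or 4 animals per group, differences as large as those of PHKA1 and PGM2L1 at 3 months fell on either side of the threshold.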
